A study of Mus musculus with 19 samples.

Results

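The proximal tubule takes back most of what the glomerulus filters, and the 42 genes described here encode transporters of its apical and basolateral membranes together with its endocytic receptors. They were taken by gene name from a count table of 54532 genes, from a list that sorts them into phosphate, sugar, monocarboxylate, organic cation, organic anion, sulfate and carboxylate, amino acid and peptide, acid-base, sodium and water, fatty acid and ascorbate, and endocytosis genes. Sodium gradients drive most of the apical carriers, and basolateral carriers pass the solutes on to the blood or bring drugs and organic ions in for secretion. Filtered proteins enter the same cells by endocytosis through megalin and cubilin. Obstruction of the ureter is known to injure these cells, which then lose transporter transcripts.

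The kidneys came from male C57BL/6J mice aged 8 to 9 weeks whose left ureter had been ligated (unilateral ureteral obstruction, UUO), and the whole obstructed kidney was taken on day 12 after heparin perfusion. WT mice and mice lacking CD5L throughout the body (CD5L KO) were injected intraperitoneally every day with 0.5 mg of recombinant CD5L (rCD5L) or the same volume of PBS. RNA with an integrity number of at least 7 was sequenced from 5 kidneys each of WT + PBS, WT + rCD5L and CD5L KO + rCD5L and from 4 of CD5L KO + PBS. By the labels every group had UUO, so that no group shows the level of these genes without obstruction.

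The total count per kidney lay between 17917491 and 23847090. Cd5l, which marks the genotype, had 0 counts in each of the 9 CD5L KO kidneys and 3 to 15 counts in the WT kidneys, and a count of 0 allows up to 3 counts. The cell type named by the list was found in every kidney: Lrp2, Cubn, Slc34a1, Slc5a2 and Slc5a12 were detected throughout, and Hnf4a, a transcription factor of the proximal tubule, lay at 185 CPM (counts scaled to library size with TMM factors) or more. All 42 genes passed the filter on low counts in every comparison.

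2 kidneys of the group CD5L KO + rCD5L stood apart and touch each result on that group. In replicate 4 the 42 genes took 2.47% of all counts, against 0.486% to 0.795% in the other 18 kidneys. Mitochondrially encoded genes took 10.3% of its counts against 2.34% to 4.55% elsewhere, and its TMM factor was 0.682. The summed level of the 10 tubular injury markers was 12800 CPM there and 19120 to 33500 CPM elsewhere, that of the 10 fibroblast and myofibroblast markers 1827 CPM against 3559 to 7616 CPM, and that of the 8 macrophage markers 801 CPM against 1939 to 3164 CPM, with no gene of these lists at 0. Spp1 made up 9164 CPM of the injury sum, and all genes of these lists were lower there than in any other kidney except Itgb6, which was the highest of the 19 at 156 CPM. Hnf4a stood at 921 CPM in this kidney against 185 to 358 CPM, and Havcr1, the injury marker KIM-1, at 289 CPM against 426 to 832 CPM. Other proximal tubule genes were high in it as well: the 25 proximal tubule enzymes and brush border genes summed to 86132 CPM against 6721 to 15572 CPM, with 24 above all other kidneys, and the 25 other transport genes to 8249 CPM against 1531 to 2731 CPM, with 22 above. Dpp4, Slc6a20a and Slc20a2 lay within the range of the other kidneys, and Abcc4, at 73.0 CPM, below it. The 13 loop, distal and collecting duct markers summed to 6334 CPM against 2100 to 4174 CPM, with 8 of them above all other kidneys, among them Umod at 3756 CPM and Slc12a1 at 995 CPM, while 5 (Pvalb, Trpv5, Aqp2, Scnn1b and Scnn1g) lay within the range of the others. The labels give this kidney UUO like the others, and whether it was obstructed to the same degree was not tested. In bulk tissue, fewer cells of a type and less RNA per cell cannot be told apart.

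That kidney was the highest of all 19 for 40 of the 42 genes, where it was the highest for 26.6% of the 18454 genes tested over the 4 groups. Its level was 1.30 to 65.3 times the median of the other 18 kidneys (median 6.63), and at least 4 times that median for 30 of the 42. Slc22a7, an organic anion carrier, stood at 278 CPM there and at 0.929 to 53.1 CPM elsewhere. Slc7a13, an amino acid carrier of the late proximal tubule, stood at 1810 CPM against 22.4 to 184 CPM. Slc5a1 and Slc5a10, which carry sugars, were the 2 exceptions, and for both replicate 3 of the same group was higher.

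Replicate 3 was less far from the rest. The 42 genes took 0.729% of its counts, within the range of the 17 kidneys other than replicates 3 and 4. Of the 42 genes, 20 lay above all of the 17 kidneys other than these 2, and 2 lay below them, while 27.1% of all genes lay above. Its level over the median of those 17 kidneys ran from 0.404 for Slc5a12, a lactate carrier that stood at 17.7 CPM there and was below the other kidneys, to 14.8 for Slc22a7, with a median of 1.42. Across the 42 genes this ratio had a Spearman correlation of -0.61 with gene length, and across all genes of -0.18, in values that all come from 1 library set against the same 17 kidneys. Its injury marker sum was 29261 CPM, within the range of CD5L KO + PBS. Its fibroblast and myofibroblast marker sum was 7466 CPM, above the other CD5L KO kidneys (1827 to 5887 CPM) and within the range of the WT kidneys (5107 to 7616 CPM), and its sum of epididymal markers, 64.1 CPM, was the highest of all 19.

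**Figure D1:**
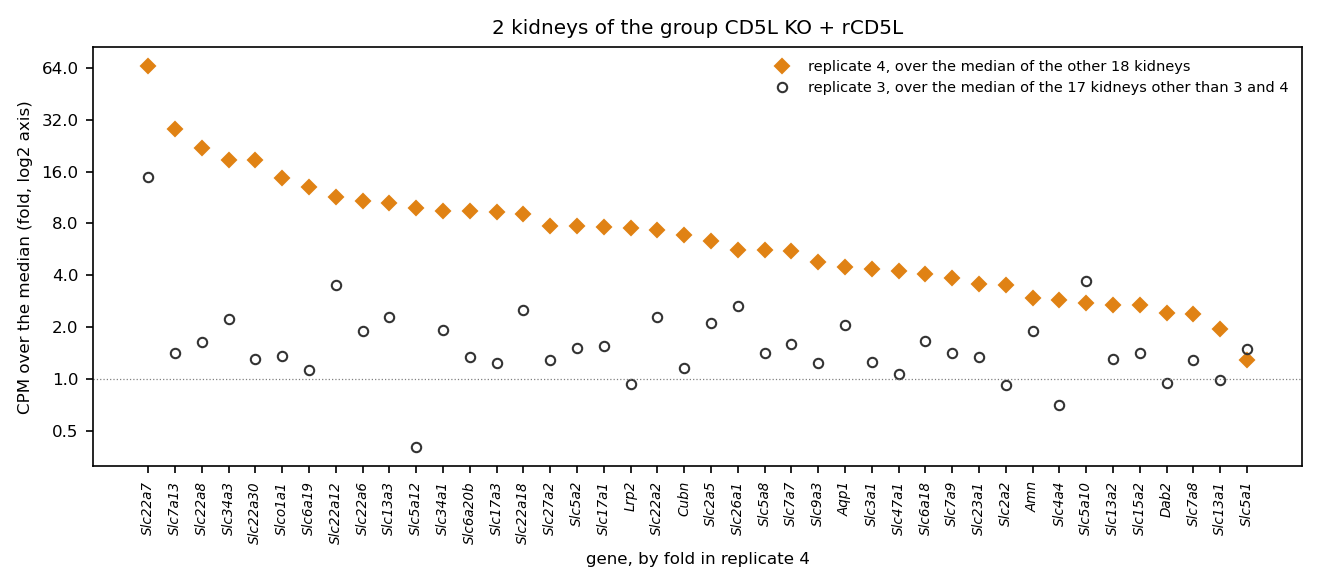
CPM of each of the 42 genes in replicates 4 (diamonds) and 3 (open circles) of CD5L KO + rCD5L, divided by the median of the other 18 or 17 kidneys, on a log2 axis, ordered by the ratio in replicate 4. Replicate 4 runs from 1.30 for Slc5a1 to 65.3 for Slc22a7, and replicate 3 from 0.404 for Slc5a12 to 14.8 for Slc22a7.

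Many of the 42 genes were high or low in the same kidneys. The bases before the starts of the 42 genes were therefore read for letters of a site that a proximal tubule factor binds. RefSeq windows on GRCm38.p6, from 250 bases before a start to 50 after it, were at hand for 34 of the 42 genes and left out Slc5a2, Slc5a12, Slc47a1, Slc22a7, Slc13a1, Slc7a13, Slc6a18 and Slc23a1. CAAAGTC, part of the HNF4 site, was searched on both strands and stood in 3 of 44 windows (6.82%), from 3 genes, against 4.44% of all 32851 windows. The 250 bases upstream of Slc3a1 and Slc7a7 are shown because the motif lies wholly before the start in them, with capitals for the motif on either strand. Slc3a1 lies at chr17:85028097-85028346 on the plus strand and Slc7a7, a basolateral carrier of basic amino acids, at chr14:54417945-54418194 on the minus strand, both written 5′ to 3′.
Slc3a1: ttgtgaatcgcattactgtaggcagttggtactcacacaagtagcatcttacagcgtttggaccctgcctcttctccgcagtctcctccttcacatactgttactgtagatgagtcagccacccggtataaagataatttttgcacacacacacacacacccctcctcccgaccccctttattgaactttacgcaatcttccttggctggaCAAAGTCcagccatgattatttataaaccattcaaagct
Slc7a7: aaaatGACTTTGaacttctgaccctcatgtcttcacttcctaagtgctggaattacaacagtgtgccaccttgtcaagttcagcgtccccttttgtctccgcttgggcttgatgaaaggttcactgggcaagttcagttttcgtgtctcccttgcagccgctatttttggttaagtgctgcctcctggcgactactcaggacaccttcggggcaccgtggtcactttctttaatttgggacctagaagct
The motif begins at -39 from the start in Slc3a1 and at -245 in Slc7a7 (reverse complement), and in Slc34a1 it begins at -6 and runs over the start (reverse complement). The Slc34a1 window, 55399398 to 55399697 on chromosome 13, lies inside the counted gene, which starts at 55398187. A match shows letters and not a site in use.

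Levels between genes were compared in FPKM, which are per length. In WT + PBS the highest medians were those of Slc27a2, a fatty acid transporter and acyl-CoA synthetase (173 FPKM), Slc34a1, the main phosphate carrier (129 FPKM), the water channel Aqp1 (101 FPKM) and the urate carrier Slc22a12 (68.7 FPKM). Megalin (Lrp2) had a median of 15.8 FPKM and cubilin (Cubn) of 4.71 FPKM, while Amn, which carries cubilin to the membrane, had 36.9 FPKM and the adaptor Dab2 34.5 FPKM. The lowest medians were those of Slc34a3 (2.55 FPKM) and Slc22a7 (2.48 FPKM). Slc27a2, Slc34a1 and Aqp1 held the same 3 places in WT + rCD5L, CD5L KO + PBS and CD5L KO + rCD5L as well.

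**Figure D2:**
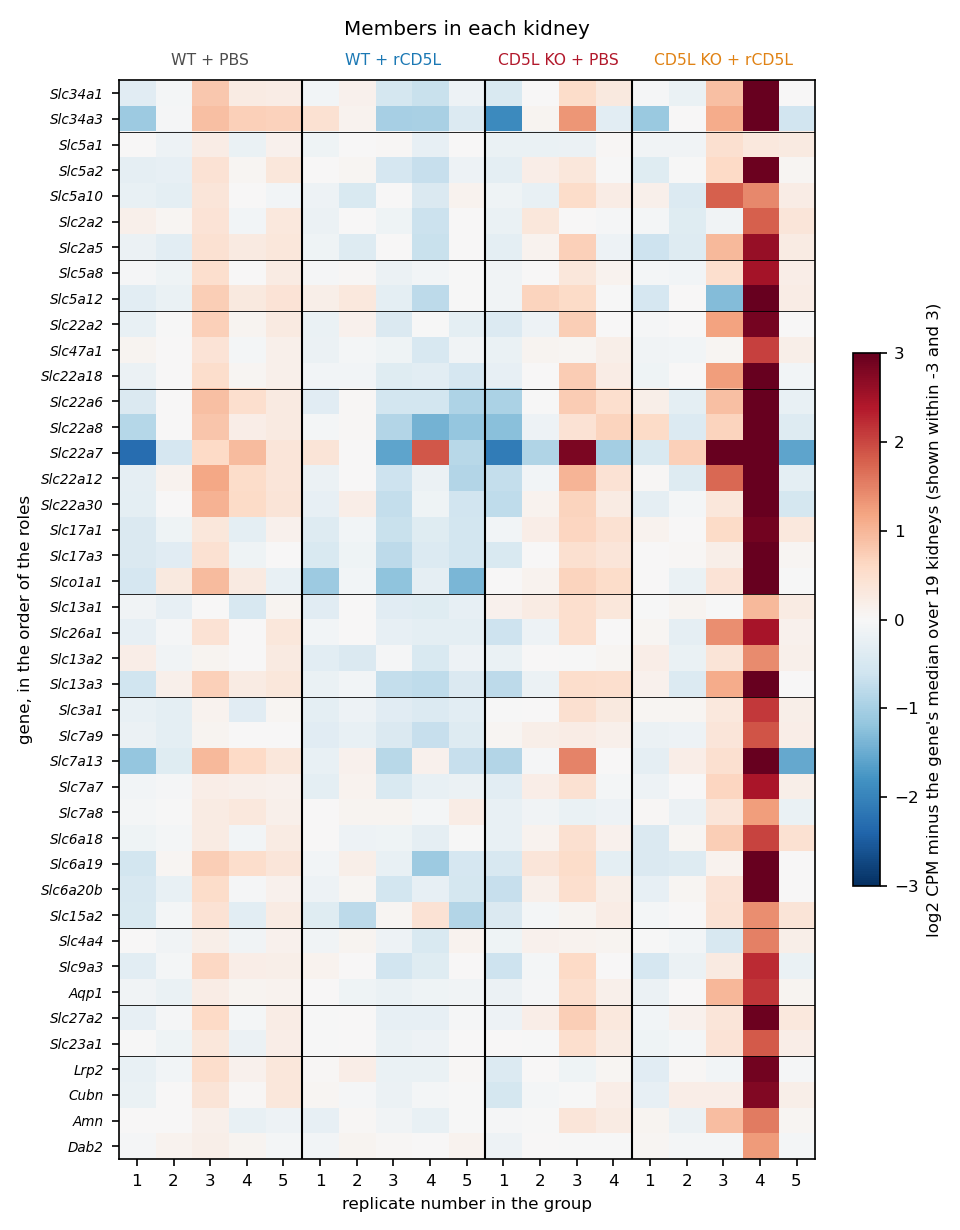
Log2 CPM of each of the 42 genes (rows, in the order of their roles, with lines between roles) in each of the 19 kidneys (columns, by group and replicate number), after subtracting the gene's median over the 19 kidneys. Replicate 4 of CD5L KO + rCD5L is above the median in every row, and replicate 3 of WT + PBS is above the median in nearly all of them.

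Within groups, the genes tended to be high or low in the same kidneys. The mean of log2 CPM over the 42 genes, centred on each gene's own mean, lay at -0.45, -0.23, 0.36, -0.02 and 0.08 in replicates 1 to 5 of WT + PBS, and replicate 3 was the highest of its group for 38 of the 42 genes. In CD5L KO + PBS it lay at -0.55, -0.11, 0.38 and 0.00 in replicates 1 to 4, where replicate 1 was the lowest for 39 genes and replicate 3 the highest for 30. In WT + rCD5L it lay at -0.27, -0.16, -0.52, -0.45 and -0.43, and in CD5L KO + rCD5L at -0.26, -0.22, 0.46, 2.53 and -0.15. The range of each group thus overlapped with the others, and the kidneys of WT + rCD5L filled the lower part of it.

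**Figure D3:**
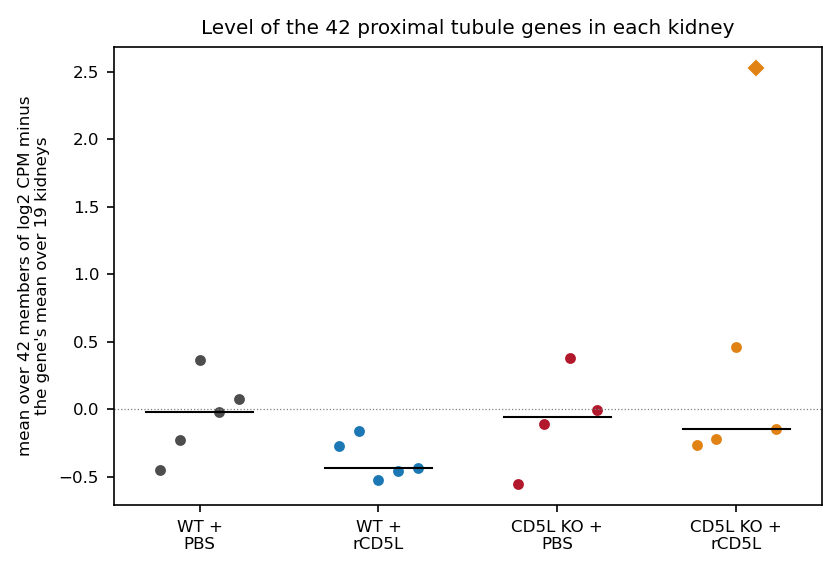
Mean over the 42 genes of log2 CPM minus the gene's mean over the 19 kidneys, 1 point per kidney, with lines at the group medians and a diamond for replicate 4 of CD5L KO + rCD5L. That kidney lies at 2.53, and the other 18 lie between -0.55 and 0.46.

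Among the 861 pairs of genes, the median Pearson correlation of log2 CPM was 0.87 over the 19 kidneys and 0.56 over the 18 without replicate 4, in values that share libraries and groups. The pairs ran from 0.21 to 0.99 over 19 kidneys and from -0.54 to 0.96 over 18. Each gene was also compared with the mean of the other 41. Slc34a1 followed that mean most closely of those named here (r = 0.99 over 19 kidneys and 0.96 over 18), while Slc5a1 (0.55 and 0.49) and Slc13a1 (0.73 and 0.43) followed it less, and Slc5a12 dropped from 0.79 to 0.18. Slc4a4 dropped from 0.82 to 0.13, Dab2 from 0.88 to 0.15 and Slc7a8 from 0.84 to 0.33. Outside the list, the genes most like the mean of the 42 were Aldh7a1, Sord, Fbp1, Ak4 and Adhfe1, with r = 0.99 over 19 kidneys and 0.95 to 0.96 over 18. Fbp1, a gluconeogenic enzyme, and Sord, the sorbitol dehydrogenase, are enzymes of the same tubule segment.

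The first comparison asked whether loss of CD5L changed these genes in obstructed kidneys given PBS. Slc13a1, the apical sulfate carrier, was higher in CD5L KO, and Slc7a8, a basolateral carrier of neutral amino acids, was lower, while the other 40 genes were not called. The 2 calls are 4.76% of the 42 genes, against 10.5% of the 17579 genes tested, 5.13% higher and 5.40% lower (edgeR quasi-likelihood test, Benjamini-Hochberg adjusted p under 0.05). The median log2 fold change was -0.03 over the 42 genes and 0.00 over all genes, with 20 of the 42 genes above 0 and 22 below, where 49.3% of all genes lay above 0. This split moved with single kidneys: 32 genes lay above 0 without CD5L KO + PBS replicate 1 (median 0.13), 9 without CD5L KO + PBS replicate 3 (median -0.13) and 30 without WT + PBS replicate 3 (median 0.08).

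Slc13a1 (chromosome 6 of GRCm38, 24088283 to 24168092, minus strand) stood at 427, 390, 461, 329 and 491 CPM in replicates 1 to 5 of WT + PBS and at 503, 550, 651 and 580 CPM in those of CD5L KO + PBS. Every CD5L KO kidney lay above every WT kidney, which held for 14.1% of all genes in either direction. The means were 571 ± 62.1 CPM (SD, n = 4) and 420 ± 63.2 CPM (SD, n = 5), and the log2 fold change was 0.44 ± 0.11 (SE, edgeR adjusted p = 0.0252). Slc7a8 (chromosome 14, 54722209 to 54781946, minus strand) stood at 78.9, 81.0, 96.8, 102 and 90.7 CPM in WT + PBS and at 69.9, 75.7, 71.6 and 73.2 CPM in CD5L KO + PBS. The ranges did not overlap here either, and the kidneys lacking CD5L were close to each other. The log2 fold change was -0.31 ± 0.07 (SE, edgeR adjusted p = 0.0216), with means of 72.6 ± 2.44 CPM (SD, n = 4) and 89.8 ± 9.78 CPM (SD, n = 5).

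Both calls lay near the threshold. That of Slc13a1 was lost without CD5L KO + PBS replicate 2 (edgeR adjusted p = 0.0505), 3 (0.0644) or 4 (0.0562) or WT + PBS replicate 2 (0.0632), and that of Slc7a8 without CD5L KO + PBS replicate 1 (0.0624), 3 (0.0522) or 4 (0.0543) or WT + PBS replicate 4 (0.0501). With all 19 kidneys in 1 fit neither was called (edgeR adjusted p = 0.313 and 0.656). With 1 kidney left out the log2 fold change of Slc13a1 lay between 0.36 and 0.50 and that of Slc7a8 between -0.36 and -0.27. Over the 8 alternatives that kept every kidney they lay between 0.42 and 0.51 and between -0.32 and -0.28.

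The other 40 genes had an edgeR adjusted p above the threshold. Of the 9 amino acid and peptide genes, 6 lay above 0, among them both subunits of the cystine carrier: Slc3a1 had a log2 fold change of 0.33 ± 0.12 (SE, edgeR adjusted p = 0.101) and Slc7a9 of 0.22 ± 0.07 (SE, edgeR adjusted p = 0.0790). Slc17a1, an apical carrier of urate and phosphate, had 0.37 ± 0.16 (SE, edgeR adjusted p = 0.172), with the 8 organic anion genes between -0.27 and 0.89. In all, 5 of the 42 genes had an unadjusted p under 0.05, 4 of them higher in CD5L KO, against 26.6% of all genes and 12.6% higher. The phosphate genes lay at -0.09 (Slc34a1) and -0.19 (Slc34a3), the 5 sugar genes between -0.14 (Slc2a2 and Slc5a1) and 0.16, and the monocarboxylate gene Slc5a8 at -0.05. For the toxin and drug exporter Slc47a1 the log2 fold change was -0.11, for Aqp1 0.09 and for Slc23a1, which takes up vitamin C, 0.14.

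The 4 endocytosis genes did not move in 1 direction. Lrp2 (chromosome 2, 69424340 to 69586065) stood at 253, 276, 422, 321 and 368 CPM in WT + PBS and at 221, 293, 267 and 307 CPM in CD5L KO + PBS. The 2 ranges overlapped widely, and the log2 fold change was -0.28 ± 0.14 (SE, edgeR adjusted p = 0.233). Cubn (chromosome 2, 13276338 to 13491813) gave -0.22 ± 0.14 (SE, edgeR adjusted p = 0.363) and Dab2 (chromosome 15, 6299788 to 6440712) -0.11 ± 0.06 (SE, edgeR adjusted p = 0.307). Amn (chromosome 12, 111271095 to 111276426) gave 0.18 ± 0.09 (SE, edgeR adjusted p = 0.255). With 1 kidney left out Lrp2 lay between -0.36 and -0.17, Cubn between -0.32 and -0.09, Dab2 between -0.13 and -0.07 and Amn between 0.10 and 0.23. Lrp2 and Cubn are the longest of the 42 genes and Amn is among the shortest, and over the 42 genes the log2 fold change had a Spearman correlation of -0.33 with gene length, against -0.28 over all genes tested. With an offset for gene length Slc13a1 and Slc7a8 were still called, at log2 fold changes of 0.50 (edgeR adjusted p = 0.0228) and -0.28 (0.0393). Over the 8 alternatives that kept every kidney, the offset among them, Lrp2 lay between -0.27 and -0.15 and Cubn between -0.23 and -0.10. Dab2 then lay between -0.13 and -0.05 and Amn between 0.10 and 0.19.

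**Figure D4:**
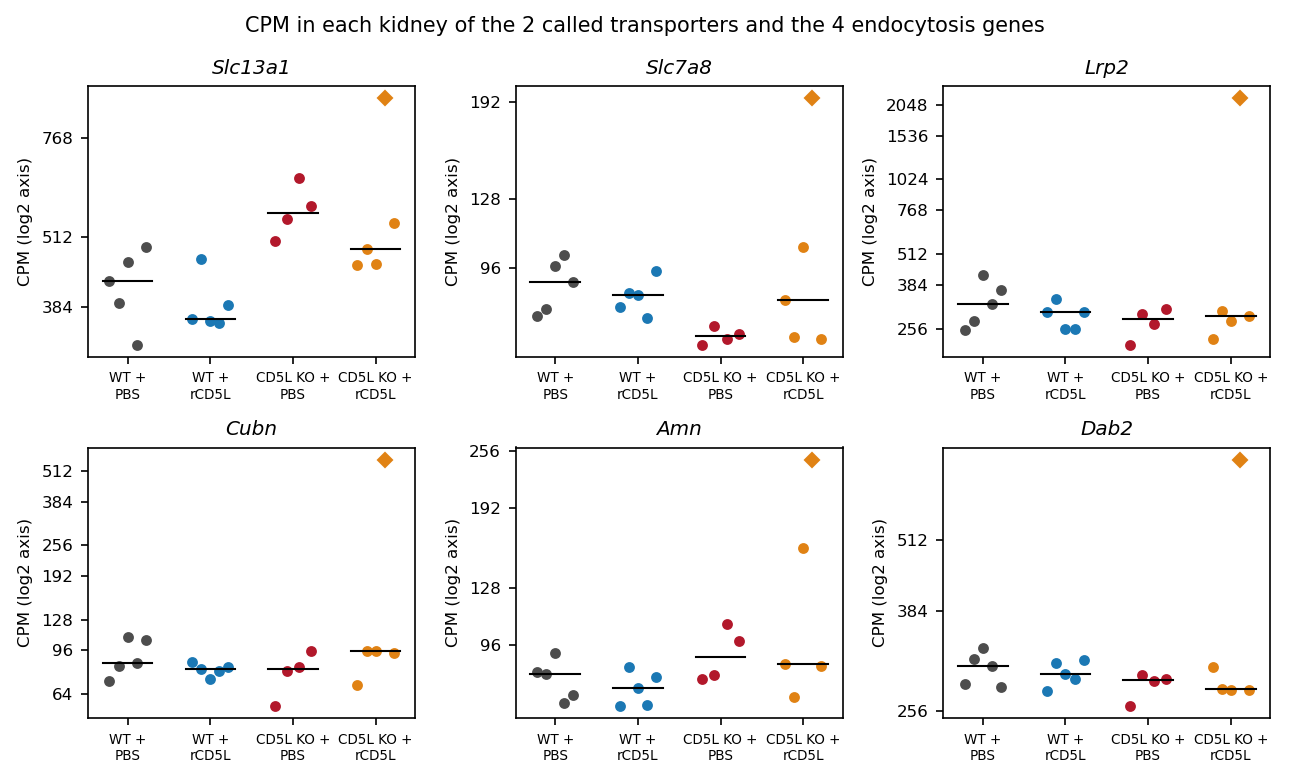
CPM in each kidney (1 point per kidney, log2 axes, lines at the group medians) of Slc13a1 and Slc7a8, called between CD5L KO and WT given PBS, and of the endocytosis genes Lrp2, Cubn, Amn and Dab2. The diamond is replicate 4 of CD5L KO + rCD5L, which lies above every other kidney in all 6 panels.

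Of the genes not called, Slc22a7, an organic anion carrier, had the value farthest from 0, 0.89 ± 0.86 (SE, edgeR adjusted p = 0.559). It stood at 1.08, 2.60, 35.3 and 2.38 CPM in CD5L KO + PBS and at 0.929 to 9.56 CPM in WT + PBS, so that only replicate 3 of CD5L KO + PBS lay above the WT kidneys. Slc34a1, which returns phosphate, stood at 698 ± 198 CPM in CD5L KO + PBS against 740 ± 227 CPM in WT + PBS (SD, n = 4 and 5). The glucose carrier of the late tubule, Slc5a1, stood at 87.6 ± 7.31 CPM against 96.0 ± 12.0 CPM, and that of the early tubule, Slc5a2, at 74.5 ± 13.7 CPM against 75.2 ± 16.6 CPM. Differences of this size were within the spread between kidneys of 1 group. Aqp1 stood at 332 ± 70.8 CPM against 310 ± 36.5 CPM, the bicarbonate carrier Slc4a4 at 403 ± 33.0 CPM against 396 ± 37.1 CPM, and the sodium-proton exchanger Slc9a3 at 31.2 ± 10.8 CPM against 33.7 ± 8.34 CPM. Slc27a2 stood at 997 ± 257 CPM against 879 ± 212 CPM, with a log2 fold change of 0.17. The values of Slc5a10 (0.16), Slc7a13 (0.16), Slc22a18 (0.09), Slc6a18 (0.08), Slc6a20b (0.05), Slc7a7 (0.01) and the fructose carrier Slc2a5 (0.00) lay at or above 0. Those of Slc15a2, a peptide carrier (-0.04), Slc22a2, which takes up organic cations (-0.09), Slc6a19, which takes up neutral amino acids (-0.20), and Slc22a30 (-0.27) lay below it.

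Other lists of the kidney gave the following in the same comparison. Of 25 other proximal tubule transport genes and 25 proximal tubule enzymes and brush border genes, 0 were called by edgeR's quasi-likelihood test, and 4 and 3 of them had an unadjusted p under 0.05. The same held for 0 of 7 proximal tubule transcription factors, with 1 at an unadjusted p under 0.05. Hnf4a had a log2 fold change of -0.17 (edgeR adjusted p = 0.481) and Havcr1 of 0.32 (0.0962). Of the 10 injury markers, Spp1, osteopontin, was called higher (0.51, edgeR adjusted p = 0.0143). Of the 10 fibroblast and myofibroblast markers 7 were called lower, with Pdgfra (-0.50, edgeR adjusted p = 0.00470), Col3a1 (-0.86, 0.00643) and Pdgfrb (-0.42, 0.00677) first, and their summed level was 3590 to 4906 CPM in CD5L KO + PBS against 5107 to 7616 CPM in WT + PBS. Of the 7 endothelial markers, Pecam1 (-0.38, edgeR adjusted p = 0.00652), Plvap (-0.32, 0.0278) and Flt1 (-0.34, 0.0451) were called lower, with sums of 627 to 701 CPM against 735 to 823 CPM. Csf1r of 8 macrophage markers and Wt1 of 6 podocyte markers were called lower, Atp6v1g3 of 12 tested loop, distal and collecting duct markers higher, and lymphocyte, urothelial and epididymal markers not called. Their part in the values of Slc13a1 and Slc7a8 was not tested.

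In WT mice, rCD5L was compared with PBS. No member was called, and 41 of the 42 genes lay below 0, with a median log2 fold change of -0.30 against 0.00 over all genes, 51.3% of which lay above 0. Slc22a7 was the exception. By edgeR's quasi-likelihood test 0 of the 17455 genes were called (0%), and the smallest adjusted p of a member was 0.121. At an unadjusted p under 0.05, 18 of the 42 genes were lower and 0 higher, which is 42.9% of the 42 genes, against 16.0% of all genes in either direction and 7.71% lower. The 42 genes share the same kidneys, so these 18 are not separate events.

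The 5 lowest values were those of organic anion genes, while Slc22a7 of the same role had the highest. Slco1a1, an apical organic anion carrier, stood at 17.97, 31.3, 49.7, 31.1 and 21.9 CPM in WT + PBS and at 12.0, 24.2, 11.1, 21.3 and 9.93 CPM in WT + rCD5L. The 2 ranges overlapped in part, and the log2 fold change was -0.95 ± 0.28 (SE, edgeR adjusted p = 0.134). Slc22a12, which returns urate from the urine, stood at 121, 157, 324, 214 and 188 CPM and at 129, 145, 94.5, 128 and 78.5 CPM, a log2 fold change of -0.80 ± 0.22 (SE, edgeR adjusted p = 0.121). Here 4 of the 5 WT + PBS kidneys lay above all kidneys given rCD5L. The median of the 8 organic anion genes was -0.71.

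Slc47a1, which passes organic cations into the urine, was the 1 member whose groups did not overlap, which was the case for 3.60% of all genes, and lower for 1.91%. It stood at 186, 175, 233, 168 and 194 CPM in WT + PBS and at 156, 168, 160, 126 and 163 CPM in WT + rCD5L, and the log2 fold change was -0.30 ± 0.09 (SE, edgeR adjusted p = 0.144). The lowest kidney given PBS was ahead of the highest given rCD5L by less than 1 CPM. Slc7a9, the light chain of the cystine carrier, had a log2 fold change of -0.33 ± 0.09 (SE, edgeR adjusted p = 0.121), from 54.7 ± 5.48 CPM to 43.3 ± 5.23 CPM (SD, n = 5 each). Slc13a2, an apical citrate carrier, had -0.35 ± 0.10 (SE, edgeR adjusted p = 0.121), from 22.2 ± 2.32 CPM to 17.2 ± 2.19 CPM. The endocytosis genes lay closer to 0, at -0.17 for Lrp2 and for Cubn, -0.06 for Amn and -0.02 for Dab2, with edgeR adjusted p from 0.402 to 0.902. With 1 kidney left out Lrp2 lay between -0.26 and -0.06 and Cubn between -0.25 and -0.10.

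Across the other roles the values were of 1 sign and of different size. The phosphate genes lay at -0.44 (Slc34a1, from 740 ± 227 CPM to 542 ± 121 CPM) and -0.64 (Slc34a3), and the organic cation genes at -0.30 (Slc47a1), -0.34 (Slc22a2) and -0.39 (Slc22a18). The sugar genes lay between -0.34 for Slc2a2, the basolateral glucose carrier, and -0.05 for Slc5a1, and the 9 amino acid and peptide genes between -0.57 for Slc6a19 and -0.06 for Slc7a8. Slc13a1, higher in CD5L KO above, lay at -0.10 and Slc7a8 at -0.06, so that the 2 genes called between the genotypes were among those nearest to 0 here. The kidneys given rCD5L were also closer to each other, with a median coefficient of variation over the 42 genes of 15.7% against 21.5% in WT + PBS.

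The count of calls in this comparison depended on the tool. DESeq2 called 542 genes, among them Slc13a2, Slc22a18, Slc47a1 and Slc7a9 of the 42, all lower. Without the filter on low counts edgeR called 137 genes, among them Slc13a3, Slc22a12, Slc22a6 and Slco1a1, all lower. With all 19 kidneys in 1 fit 0 of the 42 genes had an unadjusted p under 0.05, with no filter there were 30, and with FPKM and limma 14, with a median of -0.26 or -0.28 by pseudocount. Without WT + PBS replicate 1 edgeR called 39 genes and Slc13a3 of the 42. Without WT + PBS replicate 3, the kidney in which most members stood highest, the median of the 42 genes was -0.19, 39 lay below 0 and 11 had an unadjusted p under 0.05. For these alternative fits the share of all genes at such a p was not taken.

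The 2 larger lists of other proximal tubule genes lay mostly below 0 as well. Of the 25 other transport genes 20 were below 0 and 13 had an unadjusted p under 0.05, all lower. Of the 25 enzymes and brush border genes 23 were below 0 and 17 had such a p, all lower. The 7 transcription factors did not, with a median of 0.04, 1 higher and 1 lower at such a p and Hnf4a at -0.16, and Havcr1 lay at -0.05. The summed injury markers ranged from 21553 to 23437 CPM in WT + rCD5L and from 19120 to 25626 CPM in WT + PBS, and 0 genes of any of the lists were called by edgeR. Of 5 tested epididymal and efferent duct markers, which are genes of another tissue, 4 were higher at an unadjusted p under 0.05, with sums of 12.9 to 26.3 CPM in WT + PBS and 17.3 to 42.2 CPM in WT + rCD5L, and Lcn8 of that list was at 0 in 14 of the 19 kidneys. Of 7 endothelial markers 3 were lower at such a p (Pecam1, Emcn and Egfl7). Mitochondrially encoded genes took 2.76% to 3.87% of counts in WT + PBS, highest in replicate 3, and 2.34% to 3.05% in WT + rCD5L. Their part in the values of the 42 genes was not tested.

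In CD5L KO mice given rCD5L against those given PBS, 41 of the 42 genes lay above 0, with a median log2 fold change of 0.96, where 53.5% of all genes lay above 0, and this median rested on replicate 4. Without it 24 genes lay above 0 and 18 below, with a median of 0.02, and without replicates 3 and 4, a choice made after seeing the data, 7 lay above and 35 below, with a median of -0.15. EdgeR's quasi-likelihood test called 0 of the 17467 genes (0%) and DESeq2 10, none of them a member. At an unadjusted p under 0.05 edgeR had 0 of the 42 genes, against 2.87% of all genes. Without replicate 4 the same count was 0, against 5.54%, and without replicates 3 and 4 it was 1 (Slco1a1, -0.43, edgeR adjusted p = 0.432), against 9.76%. The count also moved with the fit: 28 of the 42 genes had such a p with all 19 kidneys in 1 fit, 7 with no filter on low counts and 0 with FPKM and limma, where the median was 0.49 or 0.50 by pseudocount. In each of these fits 0 genes were called, and the share of all genes at such a p was not taken. Of the 5 tested epididymal and efferent duct markers 4 were higher at such a p, with and without replicate 4, and their sums were 8.35 to 22.7 CPM in CD5L KO + PBS and 25.8 to 64.1 CPM in CD5L KO + rCD5L. All 6 urothelial markers lay below 0 with and without replicate 4 (medians -0.50 and -0.42), with 1 at such a p in each. Without replicate 4, 2 of the 10 fibroblast and 2 of the 10 injury markers also had such a p, against 0 and 0 with it. Their part in the values of the 42 genes was not tested. The common coefficient of variation of this fit was 28.8%, against 12.6% for CD5L KO and WT given PBS.

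Slc22a8, a basolateral carrier that brings organic anions into the cell, had the smallest p of the 42 genes. It stood at 11.7, 25.3, 37.9 and 44.1 CPM in CD5L KO + PBS and at 41.3, 21.1, 44.5, 604 and 21.2 CPM in CD5L KO + rCD5L. Leaving out the kidney at 604 CPM, the 2 ranges overlapped, and the log2 fold change went from 2.28 ± 1.05 (SE, edgeR adjusted p = 0.897) to 0.10 ± 0.37 (SE, edgeR adjusted p = 0.948). Slc26a1, a sulfate and anion exchanger, went from 1.15 ± 0.54 to 0.48 ± 0.34 (SE), since replicate 3 was high in it too, and to -0.00 ± 0.21 without both. Slc5a1 went from 0.30 ± 0.15 to 0.28 ± 0.14 (SE), and to 0.16 ± 0.10 without both.

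Megalin showed the same dependence. Lrp2 stood at 233, 301, 275, 2174 and 287 CPM in CD5L KO + rCD5L, so that 4 of the 5 kidneys lay within the 221 to 307 CPM of CD5L KO + PBS. Its log2 fold change was 1.25 ± 0.67 (SE) with replicate 4 and 0.01 ± 0.13 (SE) without it. Cubn went from 1.22 to 0.18, Amn from 0.48 to 0.13 and Dab2 from 0.37 to 0.00, with edgeR adjusted p of 0.788 or more without replicate 4. Slc13a1 was not in the upward group: its log2 fold change was -0.01 ± 0.22 (SE) with that kidney and -0.23 ± 0.11 (SE, edgeR adjusted p = 0.763) without it.

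**Figure D5:**
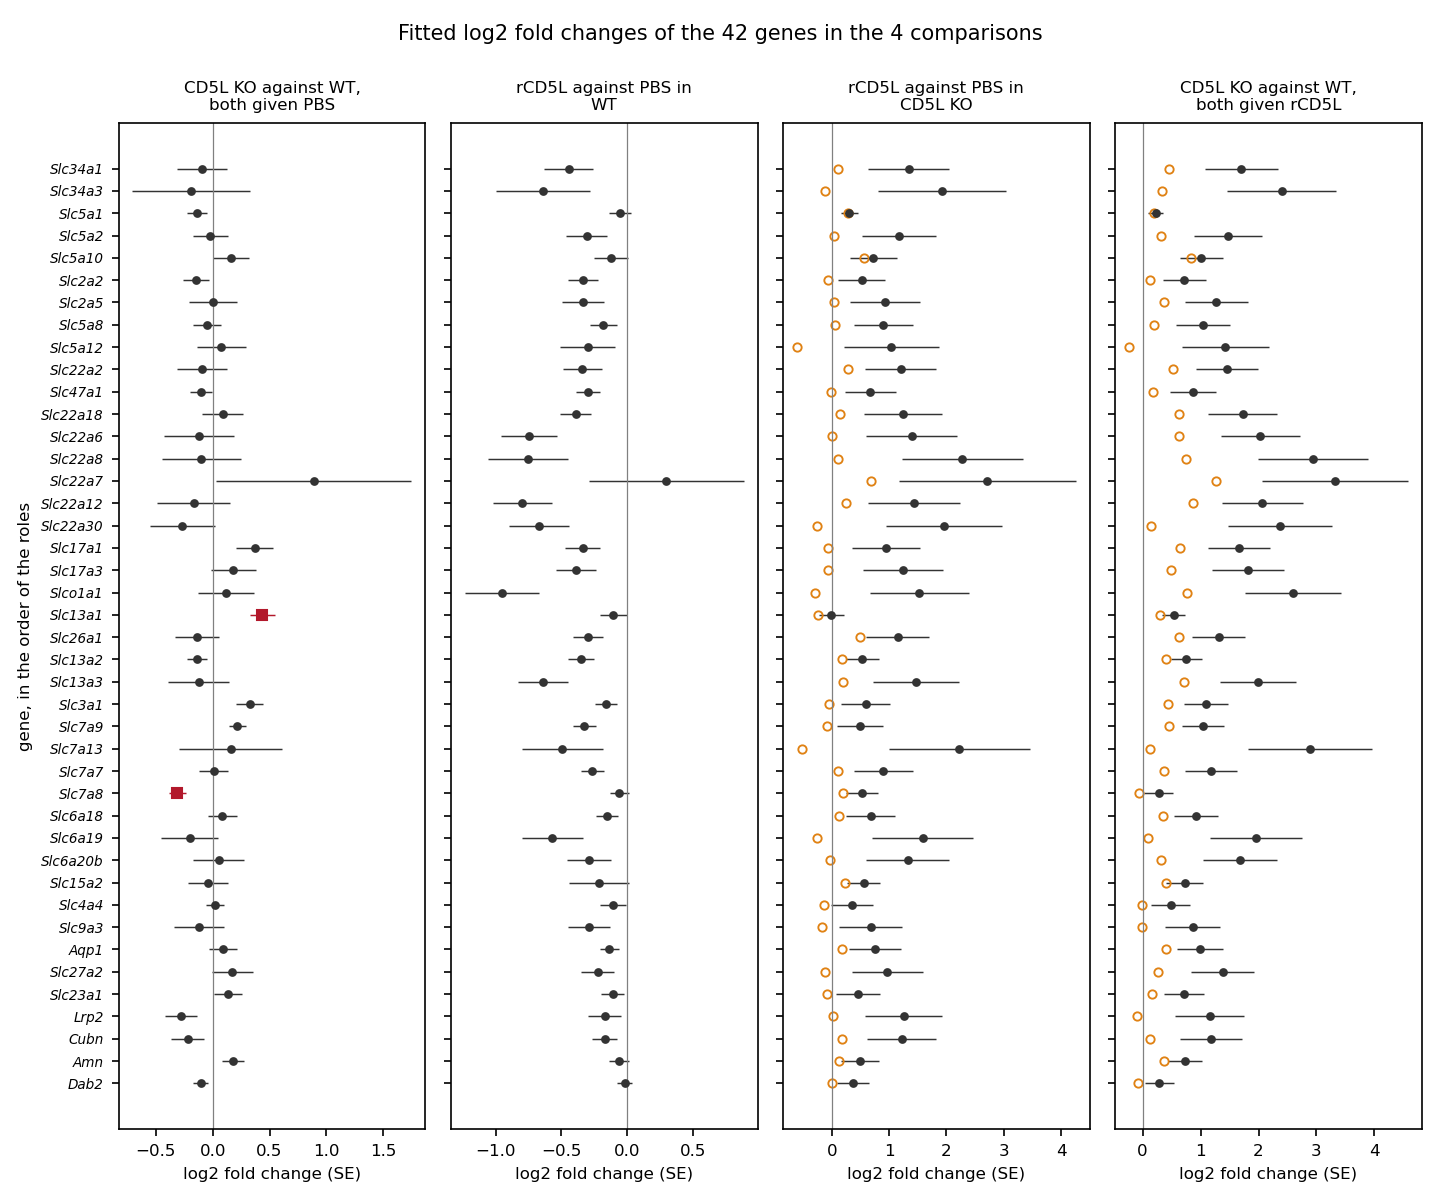
Fitted log2 fold changes (points, with SE bars) of the 42 genes in 4 comparisons. Squares mark the 2 called genes, Slc13a1 and Slc7a8, and open circles give the value without replicate 4 of CD5L KO + rCD5L, which moves the median of the 42 genes from 0.96 to 0.02 for rCD5L in CD5L KO and from 1.23 to 0.36 for CD5L KO against WT given rCD5L.

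CD5L KO and WT kidneys given rCD5L were compared as well, and they share no kidney with the comparison given PBS. All 42 genes lay above 0, with a median log2 fold change of 1.23, where 48.9% of all genes lay above 0, while edgeR's quasi-likelihood test called 0 of the 17360 genes (0%) and DESeq2 150, of which 0 were members. With all 19 kidneys in 1 fit edgeR called 1291 of 18454 genes and 14 of the 42, all higher. The share of counts from mitochondrially encoded genes did not overlap between these groups, at 2.34% to 3.05% in WT + rCD5L and 3.16% to 3.93% in CD5L KO + rCD5L without replicate 4, and its part in the values of the 42 genes was not tested. At an unadjusted p under 0.05, 33 of the 42 genes were higher, against 17.8% of all genes in either direction and 11.0% higher. Without replicate 4, 36 genes lay above 0 with a median of 0.36, and 17 had such a p, all higher, against 16.2% of all genes. Without replicates 3 and 4, a choice made after seeing the data, 32 genes lay above 0 with a median of 0.14, and 10 had such a p, 9 of them higher, against 21.5%. With FPKM and limma, on all 10 kidneys, 6 or 7 of the 42 genes had such a p by pseudocount, with medians of 0.76 and 0.79, and DESeq2 gave 20. For limma and DESeq2 the share of all genes at such a p was not taken.

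Fitted on the 2 groups alone, edgeR called 0 genes with all 10 kidneys and 0 without replicate 4. Replicates 3 and 4 were left out after levels of the 42 genes had been seen, so calls without them are no independent support. The fit without both, of 3 CD5L KO and 5 WT kidneys, called 644 of 18012 genes (3.58%), and 4 of the 42 genes, all higher (1.62% of all genes were called higher). They were Slc3a1, the heavy chain of the cystine carrier, Slc17a1 and Slc17a3, neighbouring genes on chromosome 13 that encode carriers of urate and organic anions, and Slc13a1. Slc3a1 stood at 151, 167, 147, 139 and 150 CPM in WT + rCD5L and at 193, 194, 230, 801 and 208 CPM in CD5L KO + rCD5L. All 5 CD5L KO kidneys were higher than every WT kidney. Its log2 fold change was 1.09 ± 0.38 (SE, edgeR adjusted p = 0.259) with all 10 kidneys, 0.43 ± 0.09 (SE, edgeR adjusted p = 0.105) without replicate 4 and 0.39 ± 0.06 (SE, edgeR adjusted p = 0.0140) without replicates 3 and 4.

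Slc17a1 stood at 93.3, 117, 77.3, 95.1 and 84.5 CPM in WT + rCD5L and at 133, 123, 183, 915 and 152 CPM in CD5L KO + rCD5L. The groups did not overlap, as for Slc17a3, Slc3a1 and Slc7a9, which are the 4 such members, all higher in CD5L KO, where 4.62% of all genes were higher without overlap. The log2 fold change of Slc17a1 was 1.67 ± 0.53 (SE, edgeR adjusted p = 0.259) with all kidneys, 0.64 ± 0.13 (SE, 0.120) without replicate 4 and 0.53 ± 0.11 (SE, 0.0275) without replicates 3 and 4. That of Slc17a3 without both was 0.47 ± 0.11 (SE, edgeR adjusted p = 0.0365), and that of Slc7a9 0.37 ± 0.11 (SE, 0.0728). Slc13a1 stood at 366, 468, 362, 359 and 386 CPM in WT + rCD5L and at 457, 488, 457, 904 and 543 CPM in CD5L KO + rCD5L, where replicate 2 of WT + rCD5L reached into the range of the CD5L KO kidneys. Its log2 fold change was 0.53 ± 0.20 (SE, edgeR adjusted p = 0.259) with all kidneys, 0.31 ± 0.10 (SE, 0.206) without replicate 4 and 0.34 ± 0.09 (SE, 0.0498) without replicates 3 and 4.

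For these genes the separate kidneys given PBS had log2 fold changes of 0.44 for Slc13a1, 0.33 for Slc3a1, 0.22 for Slc7a9, 0.37 for Slc17a1 and 0.18 for Slc17a3, where Slc13a1 was called. Slc7a8, lower in CD5L KO given PBS, had 0.28 ± 0.25 (SE, edgeR adjusted p = 0.547) with all kidneys given rCD5L, -0.06 ± 0.11 (SE, 0.818) without replicate 4 and -0.18 ± 0.07 (SE, 0.181) without replicates 3 and 4. The largest values with all kidneys were those of Slc22a7 (3.32), Slc22a8 (2.95), Slc7a13 (2.89) and Slco1a1 (2.60), which went to 1.26, 0.75, 0.12 and 0.76 without replicate 4. Slc22a7 went to -0.61 without replicates 3 and 4. Lrp2 went from 1.16 to -0.10 without replicate 4, Cubn from 1.18 to 0.12, Amn from 0.73 to 0.37 and Dab2 from 0.29 to -0.08, with an edgeR adjusted p of 0.337 or more for each without that kidney.

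In the same comparison most genes of the other proximal tubule lists lay above 0, with 0 called. Of the 25 other transport genes 24 lay above 0 and 18 had an unadjusted p under 0.05, and without replicate 4 these were 21 and 13. Of the 25 enzymes and brush border genes 23 lay above 0, and 24 without replicate 4, with a median going from 1.66 to 0.41. All 7 transcription factors lay above 0 (median 0.46), 1 of them at such a p, and 6 without replicate 4 (median 0.12), 0 of them at such a p. Hnf4a had a log2 fold change of 0.71 (edgeR adjusted p = 0.339). The 12 tested loop, distal and collecting duct markers lay above 0 (median 0.34), with 3 at such a p, and 10 without replicate 4 (median 0.09), with 2. Of the 10 injury markers 5 lay above 0, with 0 at such a p, and 7 without replicate 4, with 2, and Havcr1 was at 0.25 (edgeR adjusted p = 0.553) with all kidneys. All 10 fibroblast and myofibroblast markers lay below 0 (median -0.47), and all but 1 without replicate 4 (median -0.30), as did all 6 podocyte markers (median -0.42, and -0.33), of which 5 had an unadjusted p under 0.05 with and without replicate 4. Of the 7 endothelial markers 6 lay below 0 in both fits (median -0.19, and -0.20), with 2 and 3 at such a p, while all 6 urothelial markers lay above 0 in both (median 0.46, and 0.54), with 0 and 1 at such a p. All 8 macrophage and 7 lymphocyte markers lay below 0 with all kidneys (medians -0.17 and -0.34), and 3 and 6 of them without replicate 4 (0.06 and -0.15). EdgeR called 0 genes in these lists. Their part in the values of the 42 genes was not tested.

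The difference between the effects of rCD5L in CD5L KO and in WT mice was tested as an interaction over all 19 kidneys. All 42 genes lay above 0, with a median of 1.30 on the log2 scale, where 53.0% of all genes lay above 0, and edgeR's quasi-likelihood test and DESeq2 called 0 of 18454 genes (0%). At an unadjusted p under 0.05 there were 23 of the 42 genes, against 6.25% of all genes, and without replicate 4 there were 2 (Slc13a2 and Slc26a1), against 4.97%, and without replicates 3 and 4 there was 1 (Slc13a2, 0.46), against 4.96%. With FPKM and limma on all 19 kidneys there was 1 at either pseudocount, with medians of 0.71 and 0.77, and DESeq2 gave 19. For limma and DESeq2 the share of all genes at such a p was not taken. Slc13a2 had the smallest p, with 0.90 ± 0.31 (SE, edgeR adjusted p = 0.731) and 0.53 ± 0.16 (SE, edgeR adjusted p = 0.853) without replicate 4. Its 4 groups stood at 22.2 ± 2.32 CPM (WT + PBS), 17.2 ± 2.19 CPM (WT + rCD5L), 20.3 ± 1.62 CPM (CD5L KO + PBS) and 29.6 ± 14.9 CPM (CD5L KO + rCD5L) as mean ± SD, with 5 kidneys in each except CD5L KO + PBS, which had 4. Slc22a8 went from 3.05 to 0.85 and the basolateral dicarboxylate carrier Slc13a3 from 2.13 to 0.83 without replicate 4, and the median of the 42 genes from 1.30 to 0.31.

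Some of these counts may hold reads of other genes, since the strand setting of the counting is not given in the sources used here. Slc5a2, Slc5a10, Slc22a12, Slc26a1, Slc13a2, Slc3a1, Slc7a7, Slc6a20b and Slc23a1 overlap a gene on the other strand whose mean over the kidneys was at least 1 CPM, and Slc22a30 and Slc6a20b have near copies beside them, so that their values are less certain. Further members, Slc13a1 among them, overlap genes at lower levels on either strand.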

How the data were processed

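Whole obstructed kidneys of 19 mice in 4 groups were sequenced. The authors trimmed reads with Trimmomatic, aligned them with HISAT2 to GRCm38 and counted them per gene with featureCounts, and deposited the raw counts per gene of every kidney. They also deposited FPKM, which are counts per gene length and scaled library size. Versions, the strand setting and the treatment of reads with several matches are not given in the sources used here. Every column of the tables belonged to 1 kidney (0 columns without a sample).

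From the counts, genes with enough reads were kept by edgeR's filter (minimum count 10), libraries were scaled by TMM factors, and each pair of groups was fitted on its own kidneys with the quasi-likelihood test of edgeR, p-values being adjusted over all genes tested after Benjamini and Hochberg (R 4.3.3, edgeR 4.0.16). A gene was called at an adjusted p under 0.05. Log2 CPM had a prior count of 2. P-values measure the spread between kidneys, each from its own mouse. FPKM were used for levels between genes. Alternatives used DESeq2 1.42.0, FPKM with limma 3.58.1 (pseudocounts 1 and 0.1), other size factors, no filter, an offset for gene length, all 19 kidneys in 1 fit, a replicate block and each kidney left out. The scripts were tested on simulated data.

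The 42 genes, the other lists and the genes named were chosen with earlier results of these data known. Described in full are members called in any comparison, the endocytosis genes, the member of each role with the smallest p for CD5L KO against WT given PBS and the 3 members with the smallest p in each rCD5L comparison. Of other genes, up to 3 called ones per list and direction, Hnf4a, Havcr1, Cd5l and the 5 genes most like the mean of the 42 are named, and 1 gene of this rule is not reported here. Genes named for a large ratio in 1 kidney were chosen after their values were seen.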

Additional observations from a re-analysis of the deposited data

Results flagged for a closer look

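Within each group of 4 or 5 kidneys, the gap between the highest or lowest kidney and its nearest neighbour was divided by the range of the group for the mean level of the 42 genes and for the named genes. In 19 of 84 groups this share was above Dixon's critical value, where chance alone flags about 1 group in 20. The kidneys of CD5L KO + rCD5L gave 17 of them, each time with replicate 4 as the highest. The share was 0.741 for the mean level of the 42 genes. Among endocytosis genes it was 0.965 for Lrp2, 0.948 for Cubn and 0.938 for Dab2. Among organic anion and cation genes it was 0.965 for Slco1a1, 0.960 for Slc22a8, 0.924 for Slc17a1, 0.752 for Slc22a12 and 0.937 for Slc47a1. It was 0.881 for Slc34a1, 0.898 for Slc5a8, 0.808 for Slc13a1, 0.765 for Slc13a2, 0.851 for Slc13a3, 0.728 for Slc7a8, 0.861 for Slc7a9 and 0.839 for Slc23a1. These values come from 1 library and are not separate events.

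Elsewhere, replicate 2 of WT + rCD5L was apart in Slc13a1 (467.8 CPM, a share of 0.749), and replicate 4 of CD5L KO + PBS in Slc5a1 (98.5 CPM, a share of 0.850).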

How the results depend on the processing

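For CD5L KO against WT given PBS, 2 of the 42 genes and 1850 genes were called. DESeq2 called 4 of the 42 genes (Slc13a1, Slc3a1, Slc7a8 and Slc7a9) and 2622 of 17579 genes in all. With all 19 kidneys in 1 fit, 0 of the 42 genes and 12 genes in all were called. Leaving out 1 kidney gave 1015 to 2062 genes and 0 to 3 of the 42, with 0 without CD5L KO + PBS replicate 3 or 4 and 3 without WT + PBS replicate 3. The log2 fold change of Slc34a1 then lay between -0.252 and 0.0943, with 0.06 without CD5L KO + PBS replicate 1, that of Slc5a8 between -0.136 and 0.0583, with 0.01 without the same kidney, and that of Aqp1 between -0.0543 and 0.178. In WT, rCD5L gave 0 calls, against 542 genes and 4 of the 42 by DESeq2, 137 and 4 with no filter, and 0 to 39 genes and 0 to 1 of the 42 with 1 kidney left out, where Dab2 lay between -0.0461 and 0.0135, with 0.00444 without WT + rCD5L replicate 1. In CD5L KO, DESeq2 called 10 genes, and the median of the 42 genes lay between 0.0224 and 1.16 with 1 kidney left out and was -0.15 without replicates 3 and 4. For CD5L KO against WT given rCD5L, DESeq2 called 150 genes, all 19 kidneys in 1 fit called 1291 genes and 14 of the 42, leaving out 1 kidney gave 0 to 1 genes and a median of 0.36 to 1.45, and without replicates 3 and 4, chosen after seeing the data, there were 644 genes, 4 of the 42 and a median of 0.14. The median of the interaction ran from 0.31 to 1.51, and was 0.15 without replicates 3 and 4. The cause of these shifts was not tested.

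Replicate numbers were shared by the groups, and the labels give no shared batch. Over all genes the deviations of same-numbered kidneys had correlations of -0.19 to 0.17, and not every kidney correlated best with its own number. For rCD5L against PBS in CD5L KO the same-numbered values were all positive, at 0.17, 0.10, 0.14 and 0.02. For CD5L KO against WT given rCD5L they were all negative. Whether same-numbered kidneys shared a batch was not tested. For the mean of the 42 genes, replicate 1 was the lowest and replicate 3 the highest in both PBS groups. With a replicate block, 5 of the 42 genes (Slc13a1, Slc7a8, Slc3a1, Slc7a9 and Slc17a1) and 2132 genes were called for CD5L KO against WT given PBS, and the other comparisons had 0 calls among the 42. At an unadjusted p under 0.05 the block gave 8 of the 42 genes (median 0.75) for CD5L KO against WT given rCD5L, 10 (median 0.94) for the interaction, 4 for rCD5L in CD5L KO and 14 in WT. The share of all genes at such a p was not taken under the block.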
